A study of Mus musculus with 2 samples.

Results

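The genes described here encode mediators through which ILC2s (group 2 innate lymphoid cells) act on other lung cells in inflammation and repair. They are Areg, Tgfb1, Il10, Lif, Il6, Il9, Tnf, Ltb and Xcl1, 9 of the 22028 protein-coding genes of the GENCODE annotation of GRCm38, chosen by symbol. H3K4me3, trimethylated lysine on histone H3, was profiled by CATCH-seq, a carrier-assisted native ChIP-seq for small cell numbers, and each library was deposited as a list of peaks. All peaks that overlapped a gene body or lay within 1000 bp of a transcript start were taken, and those within 1000 bp of a start are called start peaks. This gave 8 of the 42126 peaks for offspring of control mothers (the control list) and 9 of the 51610 for offspring of asthmatic mothers (the asthmatic list).

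The study asked whether asthma in pregnancy leaves a lasting mark on lung ILC2s of the offspring. Wild-type C57BL/6J mothers, 6 to 8 weeks old, all received alum intraperitoneally 21 and 7 days before day 0 of the schedule and were then mated. Control mothers received alum in PBS and then intranasal PBS, whereas asthmatic mothers received alum with 100 µg of ovalbumin (OVA) and then intranasal OVA, 500 µg at each dose, between days 4 and 17 of gestation. The fathers were untreated, and no treatment of the offspring is given for these libraries. Lung ILC2s were sorted from offspring labelled 8 weeks old, taken at 7 to 9 weeks, and about 3000 cells entered each library. The study's reporting summary gives CD45+ Lin- CD90.2+ ST2+ as the sort gate for adult lungs. Its methods give CD45+ Lin- ST2+ for adult single-nucleus sequencing, and neither gate is tied to these libraries. Mice of both sexes were used in the study. The experiment was run once, with 1 library per group and 1 pregnant dam per group, so no value has a replicate, no test between groups was possible, and maternal treatment cannot be told apart from dam, litter or library. In pooled chromatin, a smaller share of cells that carry the mark cannot be told apart from less of the mark per cell.

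H3K4me3 is deposited at the starts of genes that are being transcribed or held ready for transcription, and CpG-rich promoters tend to carry it whether or not much RNA is made. ILC2s respond to epithelial alarmins such as IL-33 with type 2 cytokines, and they also release growth factors that take part in tissue repair. Many cytokine genes have promoters with few CpG dinucleotides and gain the mark when the cell is activated.

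To show how these promoters differ, the 250 bases before the start are given for 5 genes from RefSeq on GRCm38.p6, 5′ to 3′ on the gene's own strand, with CpG dinucleotides in capitals. Areg and Tgfb1 are shown for their CpG-rich starts with a peak in both lists, Tnf for its start peak in the asthmatic list only, and Il6 and Il9 for their CpG-poor starts without a peak.
Areg (chr5:91139349-91139598, plus strand): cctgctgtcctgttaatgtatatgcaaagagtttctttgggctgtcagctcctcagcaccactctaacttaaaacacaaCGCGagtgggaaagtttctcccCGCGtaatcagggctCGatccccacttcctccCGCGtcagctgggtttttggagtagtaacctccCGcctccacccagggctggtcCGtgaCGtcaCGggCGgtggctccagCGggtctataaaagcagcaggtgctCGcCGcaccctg
Tgfb1 (chr7:25686752-25687001, plus strand): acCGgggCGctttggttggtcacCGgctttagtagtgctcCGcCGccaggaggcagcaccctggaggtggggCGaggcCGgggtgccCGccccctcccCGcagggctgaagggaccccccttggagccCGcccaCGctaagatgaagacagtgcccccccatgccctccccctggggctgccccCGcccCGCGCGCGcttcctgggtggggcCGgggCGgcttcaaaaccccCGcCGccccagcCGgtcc
Tnf (chr17:35202008-35202257, minus strand): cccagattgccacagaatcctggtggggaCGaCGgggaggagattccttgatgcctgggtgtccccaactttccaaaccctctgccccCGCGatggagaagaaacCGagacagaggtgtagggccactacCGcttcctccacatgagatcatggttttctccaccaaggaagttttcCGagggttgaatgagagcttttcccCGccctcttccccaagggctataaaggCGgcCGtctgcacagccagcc
Il6 (chr5:30012864-30013113, plus strand): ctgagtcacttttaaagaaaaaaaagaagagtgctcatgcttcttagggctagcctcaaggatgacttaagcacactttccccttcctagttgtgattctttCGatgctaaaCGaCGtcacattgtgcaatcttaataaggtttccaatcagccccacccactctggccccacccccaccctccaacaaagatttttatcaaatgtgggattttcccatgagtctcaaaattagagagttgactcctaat
Il9 (chr13:56482258-56482507, minus strand): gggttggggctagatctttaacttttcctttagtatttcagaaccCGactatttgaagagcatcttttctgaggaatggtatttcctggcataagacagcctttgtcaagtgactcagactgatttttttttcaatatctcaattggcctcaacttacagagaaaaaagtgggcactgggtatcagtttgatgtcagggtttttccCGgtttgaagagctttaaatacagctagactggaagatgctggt
These 250 bases held 15 CpG at Areg, 21 at Tgfb1, 10 at Tnf, 3 at Il6 and 2 at Il9.

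The labelled cell type was checked against markers of ILC2s and of cells that a lung sort could also hold. Of 11 ILC2 markers, 8 had a start peak in the control list and 5 in the asthmatic list, against 50.9% and 41.9% of all protein-coding genes. The asthmatic count is near that background and the control count rests on few genes, so neither by itself marks the cells as ILC2s. Il1rl1, which encodes the ST2 receptor, and Thy1, which encodes CD90, both in the adult gate of the reporting summary, and Rora, Id2 and Il2ra had one in both lists, Gata3, Il7r and Il5 in the control list only, and Icos, Klrg1 and Il13 in neither. Elsewhere in the gene body, Gata3 had a peak in the asthmatic list and Icos had one in both lists. No T cell, B cell, macrophage, neutrophil or fibroblast marker (5, 4, 5, 4 and 4 genes) had a start peak in either list. Of 4 epithelial markers, Epcam (699 bp, 85.6th percentile) and Cdh1 (557 bp, 60.7th percentile) had a start peak in the control list and none had one in the asthmatic list, and of 4 endothelial markers Kdr had one (272 bp, 4.23rd percentile) in the control list and none in the asthmatic list. Their part in the results was not tested. A percentile here is the rank of a peak's −log10 q among all peaks of its own list, with 100 as the strongest. The median peak was 315 bp wide in the control list and 249 bp in the asthmatic list, the narrowest was 190 and 156 bp, and the median start peak held 24 and 16 fragments at its summit. These fragment numbers were solved from the deposited fold and −log10 p. The lists give no read totals, so depth and enrichment cannot be told apart in these numbers. Over all peaks the median was 21 fragments in the control list and 18 in the asthmatic list. The lists were called separately and are not scaled to each other, so ranks and positions are compared rather than heights.

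Of the 9 mediator genes, 4 had a peak in the control list and 5 in the asthmatic list. Areg, Tgfb1, Lif and Ltb had peaks in both lists, Tnf in the asthmatic list only, and Il10, Il6, Il9 and Xcl1 in neither. All of these genes had at least 1 start peak, so the counts for start peaks were the same. By the same rule 58.0% of all protein-coding genes had a peak in the control list and 51.7% in the asthmatic list, and 50.9% and 41.9% had a start peak. For the 4 and 5 of 9 mediator genes the exact Clopper-Pearson 95% intervals, 13.7 to 78.8% and 21.2 to 86.3%, hold these background shares, so neither count sets these genes apart. None of the 9 had a start peak in the control list only, against 9.71% of all genes, and 1 had it in the asthmatic list only, against 0.722%. The exact 95% intervals for these counts, 0 to 33.6% and 0.281 to 48.2%, also hold the background shares. Overlapping start peaks in both lists were found at 4 of 9, against 40.8% of all genes. Of the 8 peaks at these genes in the control list 6 overlapped a peak of the other list by at least 1 bp, and of the 9 in the asthmatic list 7 did, against 71.8% and 60.9% of all peaks. No peak lay within 1000 bp of a start of another protein-coding gene, and the 75 bases at each summit had no exact copy elsewhere in the assembled chromosomes. Marked nucleosomes with signal under the caller's cut-off are not listed, so a missing peak does not show a missing mark.

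**Figure D1:**
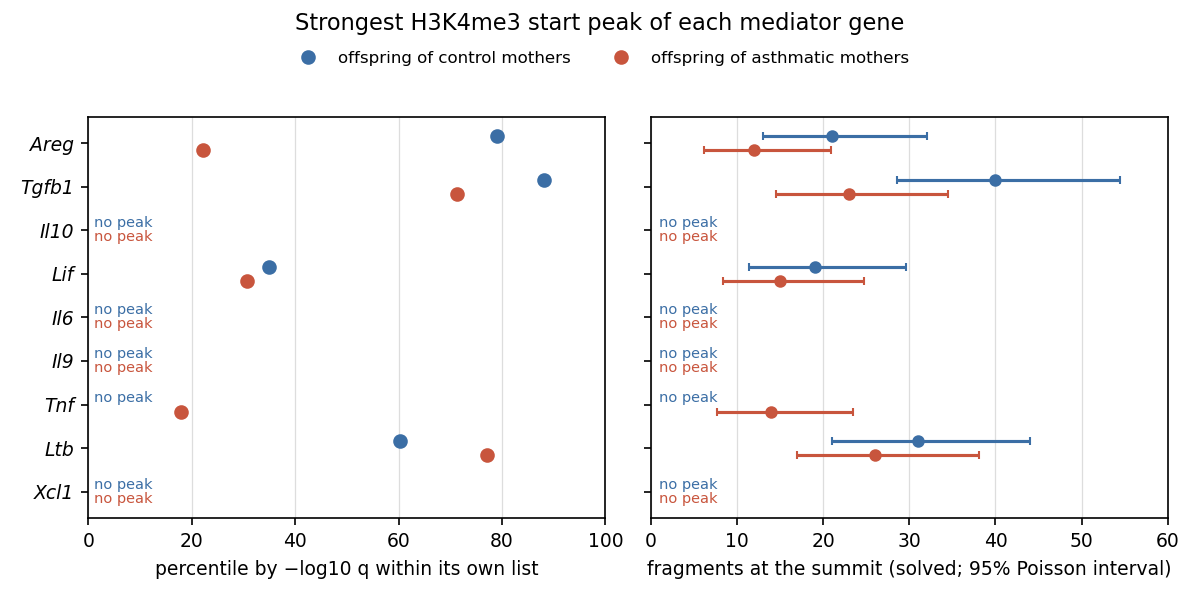
Strongest start peak of each mediator gene in offspring of control mothers (blue) and of asthmatic mothers (red), as the percentile by −log10 q within its own list (left) and as the fragments solved at the summit with exact Poisson 95% intervals (right). Areg falls from the 79.1st to the 22.2nd percentile, Ltb stands higher in the asthmatic list by percentile but not by fragments, and 4 genes have no peak in either list.

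Of the 4 genes with a start peak in both lists, Areg showed the widest gap in percentile by −log10 q. Areg encodes amphiregulin, an EGF receptor ligand that promotes epithelial repair. Its gene lies on the plus strand of chromosome 5 (ENSMUSG00000029378.5, 91139599 to 91148432) and has 1 annotated start. In offspring of control mothers a peak of 463 bp (chr5:91139586-91140048) covered the start, all of exon 1 and the beginning of intron 1, with a fold over background of 7.78 and a −log10 q of 12.7. This peak was at the 79.1st percentile, rank 8665 of 42126. In offspring of asthmatic mothers the peak was 182 bp (chr5:91139624-91139805), wholly within the noncoding part of exon 1, with a −log10 q of 5.17 and a fold of 5.07. It was at the 22.2nd percentile, rank 39184 of 51610. The narrower peak lay inside the wider, and the summits were 101 and 80 bp after the start. The summits held 21 fragments (exact Poisson 95% interval 13.0 to 32.1) and 12 fragments (6.201 to 20.96), and these intervals overlap. The gap was narrower by fold (86.5 against 45.0) and among start peaks only (54.0 against 19.5). Among start peaks only, Ltb had a wider gap, in the other direction (30.7 against 77.5).

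To see how far the Areg difference follows the whole list, the 825 control start peaks with a −log10 q within 0.5 of it were set beside it. Of these, 17.2% had no overlapping peak in the asthmatic list, and the others overlapped a peak with a median percentile of 51.8, with the middle 50% from 31.3 to 72.0. Areg, at 22.2, lay below that range. Taken from the other side, 1209 asthmatic start peaks had a −log10 q within 0.5 of that of Areg, and the control peaks they overlapped had a median percentile of 76.7 (middle 50% from 62.5 to 86.8). Areg, at 79.1 in the control list, lay inside that range. It also lay low among the 9068 genes with a start peak in both lists, of which 11.3% had an equal or larger fall in percentile.

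Tgfb1 encodes TGF-beta 1, a latent cytokine that restrains lymphocytes and drives matrix production by fibroblasts. It had the strongest control start peak of the 9 genes. The gene is on the plus strand of chromosome 7 (ENSMUSG00000002603.15, 25687002 to 25705077). In the control list, 1 peak of 551 bp lay in the noncoding part of exon 1 (chr7:25687044-25687594, 39.9th percentile, 27 fragments). A second of 667 bp spanned the coding end of exon 1 and the beginning of intron 1 (chr7:25687728-25688394, fold 5.64, −log10 q 15.8, 88.1st percentile), with 40 fragments (28.6 to 54.5). The asthmatic list had no peak in the region nearest to the first start. Its stronger peak, 526 bp over the same end of exon 1 (chr7:25687724-25688249, fold 5.53, −log10 q 9.32, 71.3rd percentile), held 23 fragments (14.6 to 34.5) and shared 522 bp with the stronger control peak. A second of 156 bp, the width of the narrowest peaks in that list, lay in intron 1 (chr7:25688505-25688660, 10.0th percentile). The percentile fell by 16.8 points, while that of the median gene with a start peak in both lists fell by 21.1 points. Ranked by fold, the Tgfb1 peaks were level (58.4 control, 58.6 asthmatic), and by width the asthmatic peak ranked higher (89.8 control, 91.6 asthmatic).

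Il10, whose product dampens inflammatory cytokine production, had no peak in either list. The gene lies on the plus strand of chromosome 1 (ENSMUSG00000016529.5, 131019845 to 131024974).

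**Figure D2:**
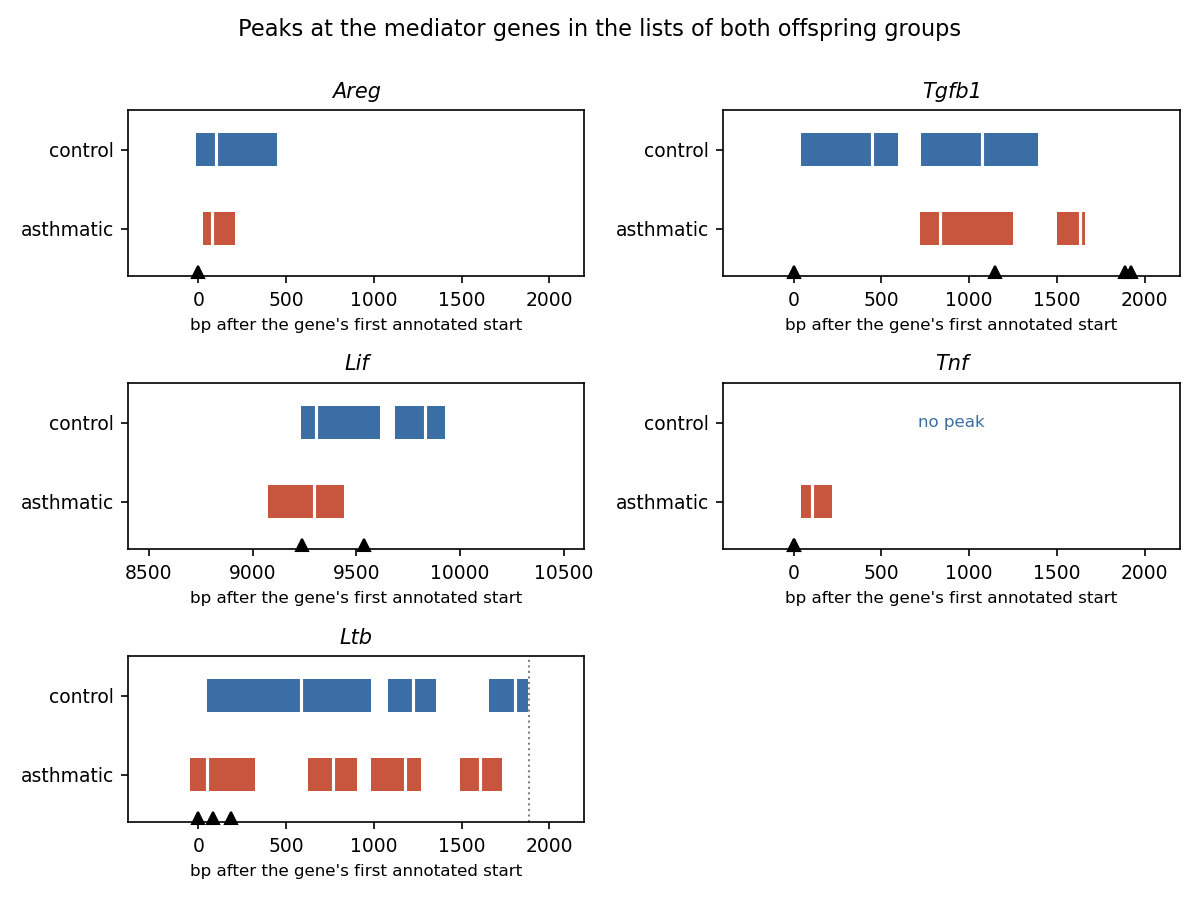
Positions of all listed peaks at the 5 genes that had any, in bp after the gene's first annotated start, for offspring of control mothers (blue, upper row) and of asthmatic mothers (red, lower row). White lines mark summits, black triangles transcript starts and the dotted line the end of Ltb; the control peaks of Areg and Ltb reach further into the gene, Tgfb1 has a peak next to its first start in the control list only, and the peaks of Lif lie about its internal starts, 9239 and 9538 bp after the first.

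Of the cytokines that signal through the gp130 receptor chain, Lif had a peak and Il6 did not. Lif encodes leukemia inhibitory factor. The gene is on the plus strand of chromosome 11 (ENSMUSG00000034394.14, 4257557 to 4272514), and its first start had no peak within 1000 bp in either list. Its peaks lay at the internal starts, at 4266796 and 4267095, the second of which opens a protein-coding transcript. The control list had a peak of 381 bp (chr11:4266790-4267170, −log10 q 6.41, 34.9th percentile) with 19 fragments (11.4 to 29.7) and another of 239 bp beyond it (chr11:4267244-4267482, 16.3rd percentile). The asthmatic list had 1 peak of 369 bp (chr11:4266629-4266997, −log10 q 5.86, 30.7th percentile) with 15 fragments (8.395 to 24.7). The paired peaks shared 208 bp and their summits lay 67 and 58 bp after the first of the internal starts. The rank of Lif was nearly level between the lists, since its percentile fell by 4.21 points, and 79.4% of genes with a start peak in both lists had an equal or larger fall. By fold (34.2 control, 41.1 asthmatic), by width (62.9 and 77.2) and among start peaks only (15.1 and 26.8) Lif ranked higher in the asthmatic list. With the 5′ end of the gene as its only start, Lif had no start peak in either list.

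Il6, on the plus strand of chromosome 5 (ENSMUSG00000025746.11, 30013114 to 30019981), encodes an inflammatory cytokine made by many cell types and had no peak. Il9, on the minus strand of chromosome 13 (ENSMUSG00000021538.3, 56479277 to 56482246), encodes a cytokine that ILC2s release for a short time after activation and that supports their survival, and it had no peak. Xcl1, a chemokine that attracts cross-presenting dendritic cells, lies on the minus strand of chromosome 1 (ENSMUSG00000026573.7, 164931644 to 164935527) and had no peak.

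The 2 members of the TNF family, which are neighbours on chromosome 17, differed from each other. Tnf, which encodes the inflammatory cytokine TNF, is on the minus strand (ENSMUSG00000024401.14, 35199381 to 35202007). It had no peak in offspring of control mothers. In offspring of asthmatic mothers a peak of 175 bp lay in exon 1 (chr17:35201791-35201965), with 125 bp noncoding and 50 bp coding, a fold of 4.53, a −log10 q of 4.95 and the 17.9th percentile. Its summit, 102 bp after the first start, held 14 fragments (7.65 to 23.5), and 12.6% of its bases were repeat-masked. Of 1150 asthmatic start peaks of like −log10 q, 8.00% (6.50 to 9.72%) had no overlapping control peak. With a −log10 q of at least 5 this peak was not counted, and Tnf then had a start peak in neither list. The nearest control peak, 2781 bp from Tnf, was the start peak of its neighbour Lta, which encodes lymphotoxin alpha (518 bp, 36.9th percentile). Lta had no start peak in the asthmatic list.

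Ltb encodes lymphotoxin beta, which joins lymphotoxin alpha on the cell surface and signals to stromal and epithelial cells. It had more peaks than any other of the 9 genes. The gene is on the plus strand (ENSMUSG00000024399.5, 35194439 to 35196320), only 1882 bp long, and peaks were spread over most of its length in both lists. The widest was a control peak of 931 bp from exon 1 to intron 2 (chr17:35194489-35195419, −log10 q 8.90, 60.2nd percentile), with 31 fragments (21.1 to 44.0), wider than 97.3% of peaks in that list. The asthmatic list had 2 separate peaks over this stretch, 1 of 370 bp over the first start (chr17:35194393-35194762, 34.1st percentile) and 1 of 277 bp in exon 2 (chr17:35195064-35195340, −log10 q 10.1, 77.2nd percentile), which held 26 fragments (17.0 to 38.1). Downstream, the control list had peaks of 272 bp (chr17:35195519-35195790, 45.5th percentile) and 219 bp (chr17:35196096-35196314, 7.94th percentile), and the asthmatic list had peaks of 287 bp (chr17:35195420-35195706, 14.3rd percentile) and 241 bp (chr17:35195928-35196168, 14.2nd percentile). The last peak of each list lay in exon 3 beyond 1000 bp of any start and was counted through the gene body. Each Ltb peak overlapped a peak of the other list. The strongest start peak ranked 16.9 points higher in offspring of asthmatic mothers, although its width was 277 bp against 931 bp. Ranked by width instead, the same peaks went from the 97.3rd percentile in the control list to the 58.0th in the asthmatic list, so the direction depends on the measure. The rise was larger by fold (25.9 to 53.5) and among start peaks only (30.7 to 77.5). Fragments at these summits did not rise (31 control, 26 asthmatic). The background solved with them was 6.63 in the control list and 3.96 in the asthmatic list.

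Ordered by rank in the control list, the strongest start peaks ran Tgfb1, Areg, Ltb and Lif, and in the asthmatic list Ltb, Tgfb1, Lif, Areg and Tnf. Areg moved from the second place to the fourth and Ltb from the third to the first. These places are by −log10 q, and by width Ltb went from the 97.3rd to the 58.0th percentile. The asthmatic Ltb peak ranked here lay in exon 2, 438 bp from the nearest start. The asthmatic peak over the first start of Ltb was at the 34.1st percentile. Within each list the Poisson intervals of the fragments overlapped between all of these genes.

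Set beside the genes with a start peak in both lists, the 4 mediators present in both are given as description. Summed start peak width in offspring of asthmatic mothers was 0.393 times that of controls at Areg (182 against 463 bp), 0.560 at Tgfb1 (682 against 1218 bp), 0.595 at Lif (369 against 620 bp) and 0.776 at Ltb (934 against 1203 bp). Their median was 0.578, beside 0.627 over all 9068 genes. Single genes had a middle 50% from 0.460 to 0.786, which held all of these but Areg. The change in percentile ranged from -56.9 at Areg to 16.9 at Ltb with a median of -10.5, beside -21.1 over all genes, and the 4 genes went both ways. Among start peaks only, Areg and Tgfb1 ranked lower in the asthmatic list (54.0 against 19.5 and 72.2 against 70.0) and Lif and Ltb higher (15.1 against 26.8 and 30.7 against 77.5), so the median depends on the ranking. Ltb lay outside the range that held the middle 90% of genes, which ended at 9.45, since 97.4% of genes had an equal or lower change. With 1 library per group none of these differences has a test, and the percentiles depend on the length of each list.

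**Figure D3:**
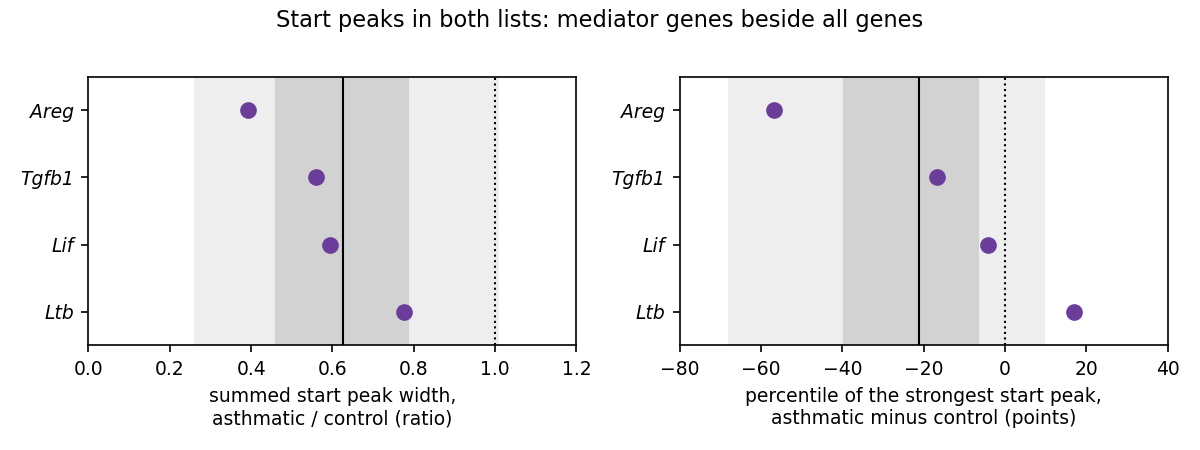
Asthmatic over control ratio of summed start peak width (left) and asthmatic minus control change in percentile of the strongest start peak (right) for the 4 mediator genes with start peaks in both lists (points). Dark grey holds the middle 50% and light grey the middle 90% of all 9068 such genes, black lines are their medians (0.627 and -21.1) and dotted lines mark no difference; Ltb lies to the right of the light band in the right panel.

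Peaks at these genes were then set beside the CpG content of their promoters. The RefSeq promoter table, 250 bases before to 50 after the start, matched 8 of the 9 genes, all but Il10. The 300-base promoters held 30 CpG at Tgfb1, 21 at Areg, 11 at Tnf, 7 at Lif, 7 at Ltb and 3 each at Il9, Il6 and Xcl1, against a median of 14 over 16522 promoters. The genes with a start peak in both lists thus had 7 or more and those without any had 3, with Tnf at 11. Among all genes the share with a start peak rose with CpG in both lists. At 3 to 6 CpG, 19.1% had a start peak in the control list and 14.8% in the asthmatic list, so a missing peak is the common state at promoters such as those of Il9, Il6 and Xcl1. At 7 to 14 the shares were 51.1% and 37.9%, and at 15 or more, where Areg and Tgfb1 lie, they were 82.3% and 69.8%. The Lif promoter in the table is that of its first start, which had no peak.

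**Figure D4:**
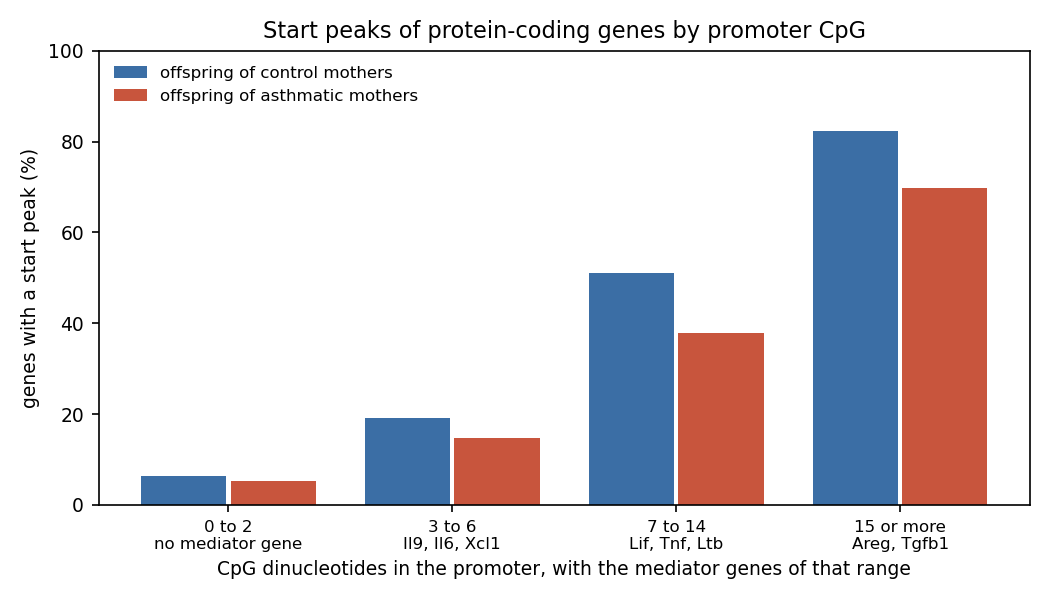
Share of protein-coding genes with a start peak, in percent, by the number of CpG dinucleotides in the 300-base promoter, for offspring of control mothers (blue) and of asthmatic mothers (red). The shares rise from 6.38% and 5.24% at 0 to 2 CpG to 82.3% and 69.8% at 15 or more; the mediator genes are written under their range.

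Short motifs were searched on both strands of the 300-base promoters, with the start as position 0. TATAAA, the core of the TATA box, was at -31 to -26 in Areg and at -29 to -24 in Tnf, and 12.9% of all promoters held it. TGACGTCA, the full cAMP response element, was at -61 to -54 in Areg, just upstream of a GGGCGG match at -52 to -47, and 2.43% of promoters held it. GGGCGG, a GC box, occurred at 6 places in Tgfb1, at 2 in Areg and at 1 in Tnf, and 48.0% of promoters held it. TGAGTCA, an AP-1 site whose reverse complement is TGACTCA, was at -140 to -134 in Il9, -249 to -243 in Il6 and -228 to -222 in Lif, and 4.58% of promoters held it. GGAAAA, the core of an NFAT site, was found in Il9, Il6 and Tnf (22.7% of promoters). Of the GATA motifs, TGATAA was found in Il6 (7.46% of promoters) and AGATAA in none of the 8 (9.72%). ACANNNTGT, the pattern of a steroid receptor site, was in none of the 8 (5.88%). Ltb and Xcl1 held none of these motifs. These are matches of letters within these windows.

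The receptors through which the mediators act were examined in the same lists. Of 14 receptor genes, 10 had a start peak in the control list and 7 in the asthmatic list, against 50.9% and 41.9% of all genes. Tnfrsf1b, a receptor for TNF, had the highest −log10 q of them, 22.2 in the control list (96.7th percentile) and 15.2 in the asthmatic list (93.6th percentile). Il6st, the gp130 chain shared by the receptors for IL-6 and LIF, had 22.0 (96.5th percentile) and 6.48 (40.6th percentile). Il10rb, a chain of the IL-10 receptor, had 15.9 (88.4th percentile) and 10.4 (78.2nd percentile). Start peaks in the control list only were found at Il2rg, the common gamma chain used by IL-9 (447 bp, 64.2nd percentile), Il6ra, the IL-6 receptor (221 bp, 62.3rd percentile), and Tnfrsf1a, the other TNF receptor (776 bp, 67.0th percentile). None had one in the asthmatic list only. Over all genes the shares with a start peak in 1 list only were 9.71% for the control list and 0.722% for the asthmatic list. Egfr, which binds amphiregulin, Lifr, Ltbr and Xcr1 had no start peak in either list.

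Relatives of the mediators came next. Of 19 genes, 8 had a start peak in the control list and 3 in the asthmatic list, beside 50.9% and 41.9% of all genes. Of 6 other EGF receptor ligands, Btc (642 bp, −log10 q 22.9, 97.2nd percentile), Hbegf (499 bp, 71.9th percentile) and Tgfa (288 bp, 4.23rd percentile) had a start peak in the control list, and none had one in the asthmatic list, although Btc and Tgfa had a peak elsewhere in the gene body there. Tgfb3, another TGF-beta (552 bp, 56.6th percentile), and Lta, given above, also had one in the control list only. Tnfsf14, the TNF family cytokine LIGHT, had a −log10 q of 22.6 in the control list (97.0th percentile) and 7.24 in the asthmatic list (51.1st percentile), and Clcf1, a relative of IL-6, had 12.6 (78.4th percentile) and 7.57 (54.0th percentile). The 4 relatives of Il10 (Il19, Il20, Il24 and Il22) and Ccl5 had none in either list, as Il10 itself.

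Genes that process the mediators were the last list. Of 11 such genes, 7 had a start peak in the control list and 6 in the asthmatic list, against 50.9% and 41.9% of all genes. For the proteases that release amphiregulin and TNF from the cell surface and their partners, 3 of 4 had a start peak in both lists. For maturation and activation of TGF-beta the counts were 4 and 3 of 7. Itgav, an integrin chain that activates latent TGF-beta (−log10 q 17.7, 91.6th percentile, and 11.6, 85.2nd percentile), Nrros, which tethers latent TGF-beta (15.0, 86.3rd percentile, and 8.52, 64.1st percentile), and Adam10, a shedding protease (14.8, 85.9th percentile, and 8.65, 66.4th percentile), had the highest −log10 q in the control list. Ltbp3, a latent TGF-beta binding protein, had a start peak in the control list only (289 bp, 62.3rd percentile).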

How the data were processed

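H3K4me3 CATCH-seq of sorted lung ILC2s gave 1 peak list per group. The authors trimmed the reads with Trim Galore and Cutadapt, aligned them to GRCm38 (mm10) with Bowtie 2, and Sambamba removed duplicates. The authors kept a small part of each lysate for an input library. The peak caller, its threshold and whether an input was used in calling are not given in the sources used here. The study's reporting summary states that no peak calls were made on the ChIP-seq data and that its quality was not checked, so the origin of the deposited lists is uncertain. In the deposited lists the score equals the −log10 q multiplied by 10 and rounded down for 99.98% of control peaks and 99.998% of asthmatic peaks, the fold is a ratio of signal to the caller's background at the summit, and the −log10 p and −log10 q describe each peak against that background. The summit is given as an offset from the peak's first base. The smallest −log10 q was 2.02 and 2.01, and the fewest fragments at a listed summit were 9 and 8, for the control and asthmatic lists.

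Gene bodies, exons and transcript starts came from GENCODE vM21. Start peaks lay within 1000 bp of any transcript start. Fragments at summits came from solving the fold and −log10 p together under a Poisson model with 1 added to signal and background. These are derived values that take the peaks as called without a control, with exact Poisson 95% intervals, and all intervals given cover counting error only. Start peaks of like strength had a −log10 q within 0.5. All of 500 simulated overlaps and 490 simulated summits were recovered. Promoter sequences came from RefSeq (GRCm38.p6). No test between the groups was made. Alternatives were a −log10 q of at least 5, the 10000 peaks with the highest −log10 p, distances of 500 and 2000 bp, other choices of starts, leaving out peaks at least 50% repeat-masked, joined domains, a stricter overlap and other rankings. Of the chosen genes, 1 is not reported here, and counts leave it out. The genes, lists and settings were chosen with earlier results of these data known. Genes named from the lists were those whose start peak state differed between the libraries and the 3 with the highest −log10 q in the control list of each, and the others were named after their values were seen. Computation was in Python 3.11.15 (scipy 1.17.1, pandas 2.3.3, numpy 2.4.6), with figures in matplotlib 3.10.9.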

Additional observations from a re-analysis of the deposited data

How the results depend on the processing

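The counts of mediator genes with a peak and with a start peak, 4 in the control list and 5 in the asthmatic list, were the same with distances of 500 or 2000 bp, with starts of protein-coding transcripts only, without repeat-masked peaks and with peaks joined to domains. With the 5′ end of each gene as its only start, 3 and 4 had a start peak (47.0% and 38.3% of all genes). Keeping peaks of −log10 q 5 or more, the asthmatic counts were 4 with 5 peaks (37.3% of all genes had a start peak), and 0 genes had a start peak in that list only. Within each list's 10000 strongest peaks by −log10 p, 2 genes had a peak and a start peak in the control list, both in that list only, with 2 peaks, and 0 in the asthmatic list, so that 0 overlapped and 0 had a start peak in the asthmatic list only, while 32.2% and 9.32% of all genes had a start peak. Joined domains gave 4 and 5 regions in place of 8 and 9 peaks. With an overlap of at least 50% of both peaks, 3 genes had overlapping start peaks. For overlap and for start peaks in 1 list only, no share of all genes is given under these alternatives. Those counts therefore have no background to be set against. The median percentile of the strongest start peaks, 69.6 over 4 genes in the control list and 30.7 over 5 in the asthmatic list, where Tnf joins (51.0 over the 4 shared genes), was 46.3 and 45.0 when ranked by fold, 82.2 and 58.0 by width, and 42.3 and 26.8 among start peaks only. Of the single genes' percentiles under these rankings, 26 left the 95% binomial interval of their rank within the list, which is narrow because the lists are long and leaves out counting error of fragments, and 1 did not. The direction between the lists turned for Lif under all 3 rankings and for Tgfb1 and Ltb by width, Tgfb1 was level by fold, and Areg ranked lower in the asthmatic list under each. The domains, the overlap and the shorter lists change these counts by construction, and the cause of the other changes was not tested.

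No paired analysis was possible because each group had 1 library. For the same reason no library was left out, and the spread between animals is unknown. Summits at these genes held 12 to 40 fragments, so small differences in height were not detectable at this depth.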

Other observations

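The 4 mediator genes without a peak stood apart from their neighbours by differing distances. The nearest peak to Il9 was 20162 bp away in the control list and 26043 bp away in the asthmatic list. The nearest start peak to Il9 was that of Fbxl21 in both lists (51.2nd and 46.1st percentile). For Il6 the nearest peak was 53169 bp away in the control list and 35529 bp away in the asthmatic list, and the nearest start peak was that of Tyms, which encodes thymidylate synthase (93.8th and 46.1st percentile). For Il10 the distances to the nearest peak were 48930 and 48979 bp, and the nearest start peak was that of Mapkapk2, a kinase of the p38 pathway, 71790 and 71742 bp away (85.9th and 37.9th percentile). For Xcl1 the nearest peak was 32380 bp away in the control list and 91076 bp away in the asthmatic list, and the nearest start peak, that of Sft2d2, was 258269 and 258454 bp away (67.4th and 79.7th percentile). These neighbours were named after their values were seen.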
